A study of Mus musculus with 4 samples.

Results

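The MYC, MAX and MXD network was examined in bulk RNA sequencing of stomach from WT and *Atp4b-cre; MycOE* mice on a C57BL/6 background at 12 weeks of age, with 2 samples of each genotype. The network was taken as 10 mouse genes, *Myc*, *Mycn*, *Mycl*, *Max*, *Mnt*, *Mxd1*, *Mxd3*, *Mxd4*, *Mxi1* and *Mga*, which were taken by name as the MYC family, MAX and its partners, out of 46095 gene symbols in the count table. In *Atp4b-cre; MycOE* mice, labelled MYC-KI, Cre recombinase driven by the *Atp4b* promoter acts in the parietal cell lineage and switches on a human *c-Myc* transgene from a single floxed allele. The WT animals were Myc fl/fl littermates, which carry the floxed alleles without Cre. The table has rows for mouse genes only, so the human transgene was not measured, and whether some of its reads were counted on mouse *Myc* was not tested.

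MYC proteins are basic helix-loop-helix leucine zipper transcription factors that bind DNA only as heterodimers with MAX, mostly at the E-box CACGTG, and activate genes of growth and division. MNT and the MXD proteins (MXD1, MXD3, MXD4 and MXI1, which is also called MXD2) compete for the same MAX and the same sites, and recruit SIN3 and histone deacetylases to repress. MGA, which joins a T-box to its MAX-binding domain, brings MAX into a Polycomb complex. In a renewing epithelium such as the gastric gland, *Myc* is known from cycling progenitors and *Mxd* genes from cells that leave the cycle.

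For 3109 of the 46095 rows of the deposited table, but for 0 of the 10 members, the character-code order described here leaves the MYC-KI counts on the row of their gene name, and every value below depends on how they are matched. The counts of both MYC-KI columns were taken in row order and paired with the names in character-code order, where capitals come before lower case, while the WT columns stayed as they were. For all 10 members this moves the MYC-KI counts by 2 rows. Over the 61 rows around each member, Pearson's r between the genotypes (mean log2 of count plus 1, across genes, which are not independent) lay between 0.971 and 0.988 after the re-sorting and between -0.092 and 0.517 as deposited. The counts of 4920 and 6600 that stand beside *Myc* in the deposited MYC-KI columns are those of *Mycbp2*, a ubiquitin ligase that binds MYC. The zeros beside *Mycl* go with *Mycs*, and the counts of 2739 and 3845 beside *Mxd3* are those of *Mxi1*. Taken as deposited, 6 of the 10 members passed the thresholds used here (*Myc* and *Mxd3* higher, *Mycl*, *Mnt*, *Mxd1* and *Mxd4* lower), against 84.1% of all genes tested in that table. All further values are from the re-sorted table.

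**Figure D1:**
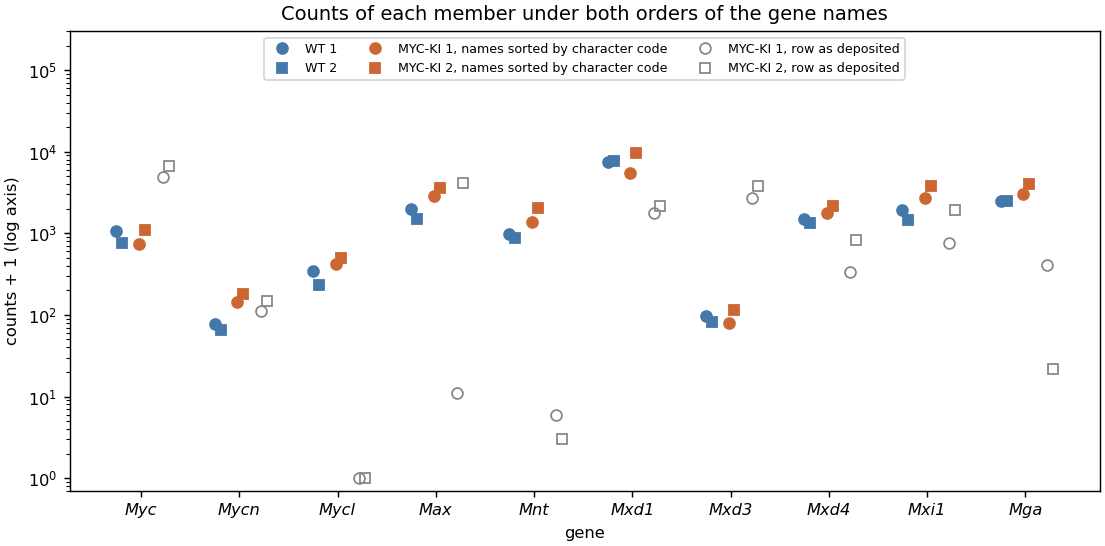
Counts plus 1 (log axis) of each member in the 2 WT samples (blue), in the 2 MYC-KI samples after re-sorting (orange, filled) and on the row as deposited (grey, open), with circles for replicate 1 and squares for replicate 2. The re-sorted MYC-KI counts lie near the WT counts for all 10 genes. The deposited row gives 0 and 0 for *Mycl*, which are the counts of *Mycs*, and 10 and 4133 for *Max*. The latter are those of *Mb*, in which the 2 MYC-KI samples differ under the re-sorted names too.

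The sequencing depth was 30260305 to 41463647 counts per sample. In *Atp4b-cre; MycOE* mice, all 7 parietal cell markers were called lower, and their summed level was 11860 and 12037 CPM (counts scaled by effective library size) in WT against 353 and 385 in MYC-KI. Chief cell markers (4 of 5), surface mucous cell markers (4 of 4) and endocrine markers (5 of 6) were also called lower, beside 5.08% of all tested genes. Called higher were 3 of 5 mast cell markers and 2 of 7 proliferation markers, beside 5.65% of all tested genes. Both MYC-KI samples lay above both WT samples for 4 of the 5 mast cell markers and for all 7 proliferation markers, against 33.3% of all tested genes. Summed proliferation markers stood at 334 and 317 CPM in WT and at 529 and 444 in MYC-KI, and forestomach squamous markers, with 0 of 5 called, ranged from 648 in MYC-KI replicate 1 to 3533 in replicate 2. The defining markers of WT stomach, *Atp4a* (7684 and 7949 CPM) and *Pgc* (80998 and 76705 CPM), were abundant in both WT samples. Leukocyte markers were called lower for 3 of 6 tested, and 0 of 2 mucous neck and 0 of 5 smooth muscle markers were called. Only 2 of the 6 pancreatic acinar markers, *Cela1* and *Cela2a*, had enough counts to be tested. Both were called lower, but *Cela2a* rested on 20 and 18 WT counts against 0 in each MYC-KI sample. Among the untested, *Prss2* and *Cpa1* had 0 counts throughout, and *Ctrb1* had 1 to 12. *Pnlip* went the other way, from 1 and 0 (WT) to 18 and 7 (MYC-KI). These few counts do not show whether acinar tissue was present. The female transcript *Xist* had 17846 counts in WT replicate 2 and 85 to 201 in the other 3 samples. In bulk tissue, fewer cells of a type and less RNA per cell cannot be told apart, and the part that these cell shifts had in the values of the network genes was not tested.

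Of the 10 members, 1 was called different between the genotypes, *Mxi1*, which rose, against 10.7% of all 17643 genes tested (5.65% higher and 5.08% lower). A call required an adjusted p-value under 0.05 from edgeR's quasi-likelihood test and a fold change above 1.5 (0.585 on the log2 scale). Both MYC-KI samples lay above both WT samples for 6 members, against 33.3% of all tested genes, and below them for 3 members, against 31.5%. The median log2 fold change of the 10 was 0.24, beside 0.012 over all tested genes. With scaling by library size in place of TMM factors the median over all genes moved up by about that much, to 0.23, and 3 members passed (*Max*, *Mnt* and *Mxi1*, all higher), against 17.1% of all genes.

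**Figure D2:**
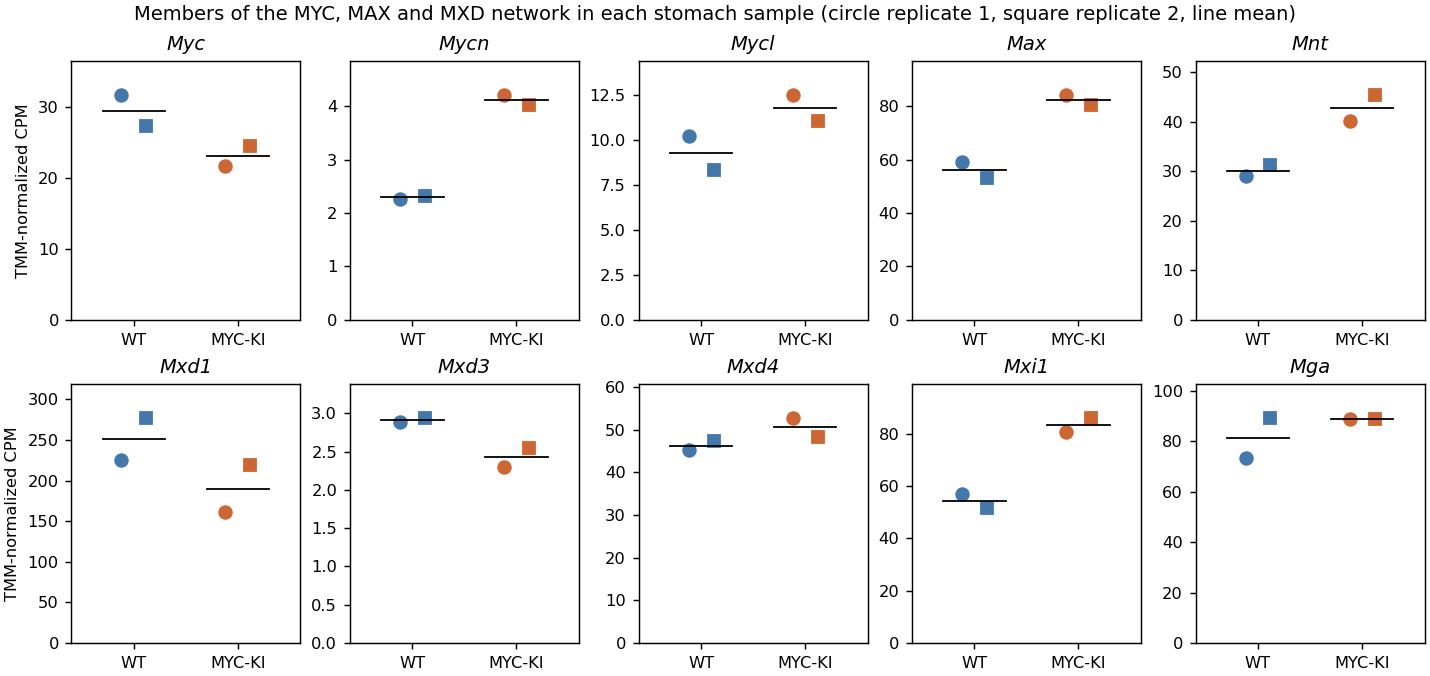
TMM-normalized CPM of each member (vertical axis, starting at 0) in WT (blue) and MYC-KI (orange) stomach, with a circle for replicate 1, a square for replicate 2 and a line at the mean of the 2. The samples of the genotypes do not overlap for 9 genes and overlap for *Mga*, and *Mxi1* is the 1 gene called.

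Of the activators, mouse *Myc* was not called in either direction. *Myc* stood at 31.6 and 27.2 normalized CPM in WT and at 21.7 and 24.4 in MYC-KI. Both MYC-KI samples lay below both WT samples, by a log2 fold change of -0.35 (95% interval -0.73 to 0.022, adjusted p = 0.163). The upper end of this interval is a 1.02-fold increase. The fold change was -0.46 without WT replicate 2 (the sample with *Xist*), -0.24 without WT replicate 1 and -0.13 with library-size scaling.

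*Mycn*, the MYC paralog best known from embryonic and neural tissue, was the member at the lowest level in WT, with 2.26 and 2.33 normalized CPM, and had 4.22 and 4.03 in MYC-KI. Its log2 fold change of 0.84 was the highest of the 10 members, but rested on 65 to 180 counts per sample, had an interval of 0.14 to 1.54 and did not pass after adjustment over all genes (adjusted p = 0.104). *Mycl*, a paralog first found in small cell lung cancer, had 10.2 and 8.35 normalized CPM in WT and 12.5 and 11.1 in MYC-KI. The MYC-KI samples lay above the WT samples, with a log2 fold change of 0.34 (interval -0.17 to 0.86, adjusted p = 0.281). The WT samples of *Mycl* lay farther from each other than WT replicate 1 lay from MYC-KI replicate 2.

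*Max*, the partner that all other members share, was higher in *Atp4b-cre; MycOE* mice and lay just under the fold change threshold. It had 59.0 and 53.2 normalized CPM in WT and 84.3 and 80.6 in MYC-KI. The means of 56.1 ± 4.11 and 82.4 ± 2.63 (SD, n = 2 each) gave a 1.47-fold difference (log2 fold change 0.56, standard error 0.090, adjusted p = 0.0345). Without the fold change threshold, where 12.9% of all genes pass, *Max* and *Mxi1* were the 2 members that passed. Without MYC-KI replicate 2 *Max* also passed the threshold, at 0.59 (adjusted p = 0.0417), whereas its adjusted p was 0.201 and 0.243 without WT replicate 1 and 2 and 0.0622 without MYC-KI replicate 1.

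*Mnt*, the MXD-like repressor that is found in cycling as well as resting cells, had 29.1 and 31.2 normalized CPM in WT and 40.1 and 45.4 in MYC-KI. The samples did not overlap, and the log2 fold change of 0.50 (standard error 0.11, interval 0.20 to 0.81) had an adjusted p of 0.0577, short of the threshold.

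*Mxi1*, a repressor of the MXD group that was identified as a partner of MAX, was the only member called. It had 57.1 and 51.8 normalized CPM in WT and 80.8 and 86.1 in MYC-KI. The means of 54.4 ± 3.77 and 83.4 ± 3.76 (SD, n = 2 each) differed 1.53-fold (log2 fold change 0.62, standard error 0.091, interval 0.37 to 0.86, adjusted p = 0.0309). With 1 sample left out, *Mxi1* stayed positive, at 0.54 to 0.69 with edgeR, but passed only without MYC-KI replicate 1. It fell under the fold change threshold without MYC-KI replicate 2 (0.57, adjusted p = 0.0435), and its adjusted p was 0.201 without WT replicate 1 and 0.238 without WT replicate 2, where edgeR called 0 genes in all, DESeq2 1222 and 1049, and 3554 and 3410 genes had an unadjusted p under 0.05. *Mxi1* and *Max* lie on opposite sides of the fold change threshold with intervals that overlap widely, and the difference between them was not tested.

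None of the other MXD genes was called. *Mxd1*, which is known from cells that stop dividing and differentiate, had 225 and 277 normalized CPM in WT and 161 and 219 in MYC-KI. The MYC-KI samples were lower, but the 2 samples of each genotype differed by nearly as much as the genotypes did, and the log2 fold change of -0.40 had an interval of -0.93 to 0.12 (adjusted p = 0.229). It was -0.64 without MYC-KI replicate 2 and -0.20 without MYC-KI replicate 1, and with DESeq2 and without replicate 2 it passed the thresholds (adjusted p = 0.00184). *Mxd3*, the MXD gene that is known from cells in S phase, was at 2.89 and 2.94 normalized CPM in WT and 2.30 and 2.55 in MYC-KI. With 78 to 114 counts per sample its log2 fold change of -0.26 had an interval of -1.01 to 0.49 (adjusted p = 0.557). *Mxd4* had 45.2 and 47.4 normalized CPM in WT and 52.8 and 48.4 in MYC-KI. Its log2 fold change of 0.13 (interval -0.12 to 0.37, adjusted p = 0.385) leaves out a difference of 1.5-fold in either direction under TMM scaling, while with library-size scaling it was 0.35 (standard error 0.091, adjusted p = 0.0599).

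*Mga* overlapped between the genotypes, with 73.4 and 89.3 normalized CPM in WT and 88.9 in each MYC-KI sample. Its log2 fold change was 0.13 (interval -0.19 to 0.45, adjusted p = 0.506), and -0.0079 without WT replicate 1.

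**Figure D3:**
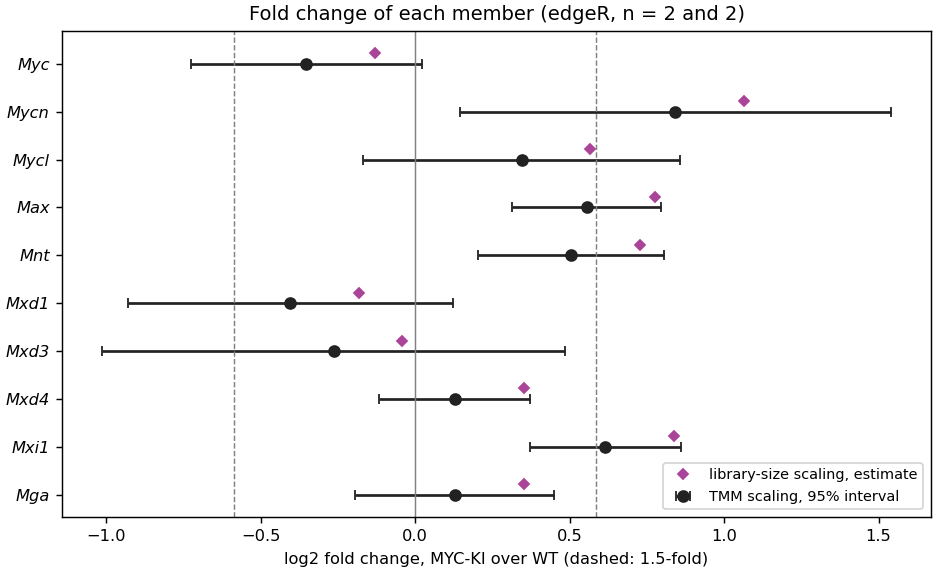
Log2 fold change of each member, MYC-KI over WT, from edgeR with TMM scaling (black points with 95% intervals, 2 samples per genotype) and with library-size scaling (purple diamonds, estimates only), with dashed lines at 1.5-fold. The interval of *Mxi1* runs from 0.37 to 0.86 and that of *Mxd1* from -0.93 to 0.12, and library-size scaling lies to the right for all 10 genes.

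The members differ in where they lie and in what else overlaps them. In the GENCODE M21 annotation (GRCm38, the build that the submitters' processing notes call mm10), *Myc* is at chr15:61985391-61990374 on the plus strand, *Max* at chr12:76937269-76962201 on the minus strand, *Mnt* at chr11:74830920-74845725 on the plus strand and *Mxi1* at chr19:53310518-53375810 on the plus strand. *Mxi1* shares 194 exonic bases with *Gm10197*, *Mxd4* 514 with *Gm42846* and *Mxd3* 105 with *Prelid1*, each on the opposite strand. The strand setting of the counting is not given in the sources used here, so reads in these stretches cannot be assigned to one of the genes. The counts are per gene, and the 9 annotated transcripts of *Mxi1* or the 7 of *Max* were not separated.

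Promoter windows (300 bases, of which 50 lie after the transcription start, from RefSeq, GRCm38.p6) were found for 9 of the 10 genes, all but *Myc*, and were searched for the E-box CACGTG, which reads the same on both strands. It stood in the windows of *Max*, *Mnt* and *Mxd4*, against 7.15% of all 32851 windows, and not in those of *Mycn*, *Mycl*, *Mxd1*, *Mxd3*, *Mga* or the 3 starts of *Mxi1*. A match is a description of these letters and not a site shown to be bound. The windows with the E-box are printed with it in capitals, and the upstream start of *Mxi1* is given beside them because it was the member that was called.
Max, chr12:76962199-76962498, minus strand, E-box across the start: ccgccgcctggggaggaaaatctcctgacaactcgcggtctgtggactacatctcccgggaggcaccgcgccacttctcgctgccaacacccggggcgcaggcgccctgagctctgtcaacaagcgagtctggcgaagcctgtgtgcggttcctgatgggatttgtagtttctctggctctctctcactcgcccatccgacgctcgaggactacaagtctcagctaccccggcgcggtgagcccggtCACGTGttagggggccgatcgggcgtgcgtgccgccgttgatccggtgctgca
Mnt, chr11:74830674-74830973, plus strand, E-box 123 bases before the start: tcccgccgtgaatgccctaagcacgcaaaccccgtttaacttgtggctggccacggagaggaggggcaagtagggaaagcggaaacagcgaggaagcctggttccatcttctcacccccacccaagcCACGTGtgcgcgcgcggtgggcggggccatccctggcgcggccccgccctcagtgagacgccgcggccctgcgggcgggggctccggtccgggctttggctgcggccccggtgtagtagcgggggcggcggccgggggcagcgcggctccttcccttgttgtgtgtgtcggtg
Mxd4, chr5:34187661-34187960, minus strand, E-box 219 bases before the start: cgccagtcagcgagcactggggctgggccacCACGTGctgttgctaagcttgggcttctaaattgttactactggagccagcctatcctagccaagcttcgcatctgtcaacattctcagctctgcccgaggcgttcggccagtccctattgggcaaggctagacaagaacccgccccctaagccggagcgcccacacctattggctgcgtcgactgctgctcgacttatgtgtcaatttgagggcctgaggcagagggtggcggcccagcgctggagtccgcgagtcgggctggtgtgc
Mxi1, chr19:53310256-53310555, plus strand, no E-box: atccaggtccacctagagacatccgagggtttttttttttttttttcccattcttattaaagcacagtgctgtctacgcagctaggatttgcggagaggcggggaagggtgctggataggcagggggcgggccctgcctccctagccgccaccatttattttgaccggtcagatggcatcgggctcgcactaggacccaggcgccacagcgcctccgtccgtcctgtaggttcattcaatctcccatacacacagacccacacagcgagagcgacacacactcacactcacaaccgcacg
The 3 genes with an E-box in this window had log2 fold changes of 0.56 (*Max*), 0.50 (*Mnt*) and 0.13 (*Mxd4*), and none of them was called.

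Levels were compared between genes as normalized CPM per kilobase of annotated exon (GENCODE M21, all exons of a gene merged). In WT stomach *Mxd1* was the most abundant member, at 35.5 ± 5.18 CPM per kb (SD, n = 2), followed by *Max* at 15.6 ± 1.14, *Myc* at 10.8 ± 1.16, *Mxi1* at 7.98 ± 0.55 and *Mnt* at 6.52 ± 0.32. *Mxd4* (5.46 ± 0.19) and *Mga* (5.30 ± 0.73) overlapped. *Mycl* (2.30 ± 0.32), *Mxd3* (1.23 ± 0.015) and *Mycn* (0.70 ± 0.014) were the lowest. In *Atp4b-cre; MycOE* stomach *Mxd1* (26.8 ± 5.79) and *Max* (22.9 ± 0.73) overlapped, *Mxi1* (12.2 ± 0.55) was the third, and *Myc* the fifth at 8.48 ± 0.72, overlapping *Mnt* at 9.24 ± 0.81. *Mycn* (1.25 ± 0.040) lay above *Mxd3* (1.02 ± 0.075) there, the reverse of WT. With the longest transcript as the length, *Myc* was again the third in WT and the fifth in MYC-KI, while *Mnt* was the sixth in both and the mean of *Max* in MYC-KI (42.4) lay above that of *Mxd1* (40.7).

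**Figure D4:**
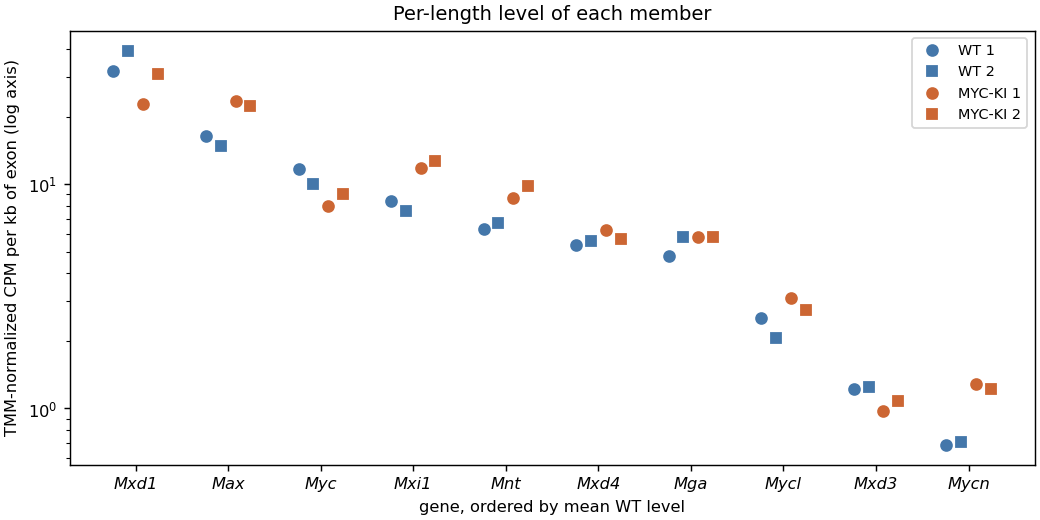
Normalized CPM per kilobase of exon (log axis) of each member in the 2 WT samples (blue) and the 2 MYC-KI samples (orange), with circles for replicate 1, squares for replicate 2 and genes in the order of the mean WT level. *Mxd1* and *Max* are apart in WT and overlap in MYC-KI, and *Mycn* and *Mxd3* change places.

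Summed by role on the same per-length scale, the 3 mouse MYC genes, without the human transgene, stood at 14.9 and 12.8 CPM per kb in WT and at 12.4 and 13.0 in MYC-KI, which overlap. The 6 repressor partners had 57.8 and 66.2 in WT and 56.2 and 65.9 in MYC-KI, which also overlap. *Max* alone did not overlap, at 16.4 and 14.8 against 23.4 and 22.4, and the level of these mouse MYC transcripts per *Max* transcript was 0.906 and 0.865 in WT against 0.527 and 0.578 in MYC-KI. With the longest transcript as the length this ratio was 0.569 and 0.544 in WT and 0.332 and 0.364 in MYC-KI. Within the repressors the share of *Mxd1* was 55.1% and 59.2% in WT and 40.4% and 46.9% in MYC-KI. *Mxi1* per *Mxd1* was 0.263 and 0.194 in WT and 0.520 and 0.408 in MYC-KI. These ratios are taken within a sample, so they do not depend on the scaling between samples. The share of *Myc* in the mouse MYC transcripts was 78.4% and 78.3% in WT and 64.6% and 69.4% in MYC-KI. With 2 samples per genotype a two-sided exact permutation test cannot go below p = 0.333, and none was run on these sums. The transgene has no row, so the sums and ratios do not give the total MYC level in MYC-KI stomach.

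The genes that work with the network were read from lists of 113 genes, all of which were tested, and 37 were called, 36 higher and 1 lower, beside 10.7% of all genes tested (5.65% higher and 5.08% lower). Of the 37, 23 were MYC-induced genes. The parallel arm that couples to the MXD proteins through MLX had 0 of 3 genes called. Log2 fold changes were 0.034 for *Mlx*, 0.15 for the glucose-responsive activator *Mlxip* and -0.067 for *Mlxipl*. The interval of *Mlxipl* ran from -2.33 to 2.19. Its MYC-KI samples lay on either side of WT, at 11.3 and 1.90 normalized CPM against 6.82 and 6.99. At an unadjusted p under 0.05 from the same edgeR test, 0 of the 3 genes of this arm passed, beside 6024 of all 17643 genes tested.

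Among the coactivators that MYC recruits, 4 of 14 were called, all higher, beside 5.65% of all genes tested that were called higher. Their median log2 fold change was 0.21. The AAA+ ATPases *Ruvbl2* (log2 fold change 1.21, adjusted p = 0.0193) and *Ruvbl1* (0.68, adjusted p = 0.0319), the histone acetyltransferase *Kat2a* (0.76, adjusted p = 0.0233) and the chromatin adaptor *Wdr5* (0.74, adjusted p = 0.0337) rose. *Ruvbl2* went from 29.5 and 28.5 normalized CPM in WT to 72.6 and 61.5 in MYC-KI. The scaffold *Trrap*, through which MYC binds acetyltransferase complexes, was at -0.10 (adjusted p = 0.569).

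Of the SIN3 and NCOR corepressor genes used by MNT and the MXD proteins, 2 of 18 were called, both higher, a share near the 10.7% of all genes tested, and the median was 0.081. These were the histone-binding subunit *Rbbp7* (0.89, adjusted p = 0.0268) and *Sap30* (0.90, adjusted p = 0.0352), a SIN3 subunit. The scaffolds *Sin3a* and *Sin3b*, which the MXD proteins bind directly, were at 0.090 and 0.059. Of the partners of MGA in its Polycomb complex 2 of 9 were called higher, *Pcgf6* (1.24, adjusted p = 0.0410) and *Tfdp1* (1.05, adjusted p = 0.0188), the DNA-binding partner of E2F factors.

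Genes that set the stability of the MYC protein had 2 of 17 called, both higher, which is also near the 10.7% of all genes. *Aurka*, a mitotic kinase that also shields MYCN from breakdown, was at 1.14 (adjusted p = 0.0476), and *C330027C09Rik*, the older symbol of *Cip2a*, an inhibitor of the phosphatase that acts on MYC, was at 0.90 (adjusted p = 0.04995) and was lost under DESeq2 scaling. The ubiquitin ligase *Fbxw7*, which marks MYC for breakdown, was at 0.17 (adjusted p = 0.419). Of 7 genes in the list for *Myc* transcription 1 was called, *Fubp1* (0.59, adjusted p = 0.0428), and it too was lost under DESeq2 scaling, at 0.58. The non-coding neighbour *Pvt1* had 1.58 and 1.58 normalized CPM in WT and 4.30 and 3.67 in MYC-KI, and was not called (log2 fold change 1.33, adjusted p = 0.0543). Of 8 other genes for MYC-binding proteins 2 were called higher, *Mybbp1a* (1.23, adjusted p = 0.0161), a nucleolar protein, and *Cdca7* (1.10, adjusted p = 0.0400). *Mycbp2*, whose counts stand beside *Myc* as deposited, was at 0.058 (adjusted p = 0.635).

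The MYC-induced genes, a list of nucleolar, metabolic and cell cycle genes, had 23 of 28 called, all higher, beside 5.65% of all genes. Their median log2 fold change was 0.98 beside 0.012 over all genes. The largest rises were those of *Tfap4*, a basic helix-loop-helix factor (1.68, adjusted p = 0.0275), and of *Dkc1*, the pseudouridine synthase of the nucleolus (1.62, adjusted p = 0.0183). *Tfap4* had 5.67 ± 0.665 normalized CPM in WT and 18.2 ± 3.76 in MYC-KI (SD, n = 2 each). *Dkc1* had 22.5 and 26.2 in WT and 81.5 and 67.9 in MYC-KI. The smallest of the called rises were those of the helicase *Eif4a1* (0.62, adjusted p = 0.0251) and of the rRNA methyltransferase *Fbl* (0.63, adjusted p = 0.0287). The 5 that were not called were *Ldha* (0.20), *Ccnd2* (-0.086), *Cdc25a* (-0.14), *Tfam* (0.33) and *Eif4e* (0.43). Both MYC-KI samples lay above both WT samples for 26 of the 28, beside 33.3% of all genes. The list was written with earlier results of these data known, so its count is a description.

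Genes that MYC is known to repress had 1 of 9 called, near the 10.7% of all genes tested. The cell cycle inhibitor *Cdkn2b* fell from 23.9 and 30.4 normalized CPM in WT to 15.5 and 14.1 in MYC-KI (log2 fold change -0.88, adjusted p = 0.0471). With edgeR, *Cdkn2b* was not called with library-size scaling or without any one of the 4 samples. The median of the 9 was -0.57, and both MYC-KI samples lay below both WT samples for 7 of them, beside 31.5% of all genes. *Cdkn1a*, the target of p53 that halts the cycle, was at 0.023 (adjusted p = 0.953). When 1 sample was left out, the number of called genes in all these lists ranged from 0 to 41 with edgeR, with 0 without either WT sample, and from 25 to 46 with DESeq2.

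**Figure D5:**
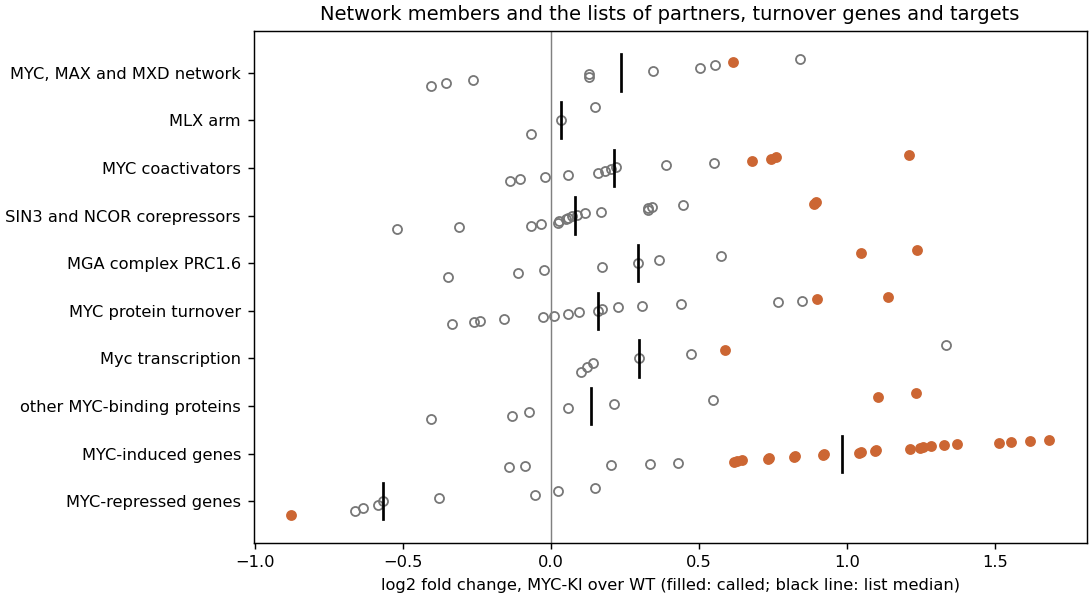
Log2 fold change (MYC-KI over WT) of the 10 network members and of the genes in each list, 1 point per gene, filled where called and open where not, with a black line at the list median. The MYC-induced genes lie mostly to the right, with 23 of 28 called, while 1 of 10 network members is called.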

How the data were processed

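RNA of stomach was measured in 2 WT and 2 MYC-KI samples, grouped by their titles. The design text of the series speaks of triplicates, and n here is the 2 samples per genotype that were analysed. The authors deposited raw counts per gene symbol, without normalization. The submitters' processing notes name HISAT2 and mm10; the counting tool and annotation are not given in the sources used here. Each sample held 30260305 to 41463647 counts, and no row lacked a name.

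Counts of the MYC-KI columns were re-assigned to the names in character-code order, and a quasi-likelihood test was fitted over all genes (edgeR 4.0.16, R 4.3.3, TMM, filterByExpr, glmQLFit, glmQLFTest, no covariates, Benjamini-Hochberg). Standard errors were derived from the log2 fold change and the F statistic of the quasi-likelihood test. The 95% intervals were formed from these with a t quantile, so both are approximate. The thresholds follow the study's methods, which used DESeq2. Named genes are all members and, in each list, every called gene or, above 4, the 2 largest and the 2 smallest, and the other genes named were chosen after their values were seen. Members and lists were chosen with earlier results of these data known. Alternatives were the deposited order, DESeq2 1.42.0, its size factors, library size, other filters, no fold change threshold, the replicate number as a block and leaving out each sample. The fits were also run on simulated counts in which the changed genes moved by more than any member did here. That run does not test how well changes of the size of the members are recovered. The labels do not say whether samples of a genotype are separate animals. The 2 WT samples differ in *Xist* and *Ddx3y* and so come from different animals, while for MYC-KI part of the spread may be technical. The 2 MYC-KI samples differ in the summed forestomach squamous markers, at 648 and 3533 CPM. What sets the MYC-KI spread was not tested.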

Additional observations from a re-analysis of the deposited data

How the results depend on the processing

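The samples share replicate numbers, but the labels tie nothing to them, and the difference between replicates 1 and 2 correlated across genes at only 0.064 between the genotypes. With the replicate block 114 genes, 0 members and 1 gene of the lists were called, and 23.7% of the calls were higher in MYC-KI. The number of genes called, 1892, was 3234 with DESeq2 and 3011 with library-size scaling, where the share of higher calls moved from 52.6% to 75.5% (46.4% with DESeq2). It ranged from 0 to 3062 over the fits of edgeR and DESeq2 that left out 1 sample, in which the lone sample of a genotype is assumed to vary like the other genotype. Without WT replicate 1 or 2 edgeR called 0 and DESeq2 1222 and 1049, and the DESeq2 fits were chosen after seeing the data. The number of members called was 3 with library-size scaling, 2 without a fold change threshold and 0 to 2 when 1 sample was left out. That of list genes was 0 to 46 when 1 sample was left out. *Mga* changed sign without WT replicate 1 (-0.0079 with edgeR, -0.026 with DESeq2), and reached 0.27 without WT replicate 2.

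In the deposited order 18580 genes, 6 members and 84 list genes were called. The fitted log2 fold changes that turned sign there were 2.38 for *Myc*, -11.31 for *Mycl*, -0.18 for *Max*, -8.26 for *Mnt*, 4.90 for *Mxd3*, -1.65 for *Mxd4*, -0.66 for *Mxi1* and -3.69 for *Mga*. Among the list genes named in the text by the rule, those that turned sign were -1.32 for *Wdr5*, -1.38 for *Ruvbl2*, -6.14 for *Tfdp1*, -2.04 for *C330027C09Rik*, -0.26 for *Fubp1*, -1.32 for *Cdca7*, -1.79 for *Mybbp1a*, -0.13 for *Eif4a1* and 2.67 for *Cdkn2b*. The re-sorting is the only difference between these fits. Depth limits *Mycn* and *Mxd3*, with 65 to 180 counts per sample.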
